A study of Homo sapiens with 4 samples.

Results

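The human genes considered here were the protein-coding genes on chromosome 19 whose symbol is ZNF followed by a number. Pseudogenes, antisense genes and read-through genes were left out. The rule found 224 members among the 25798 gene IDs of the count table, and 6 of these symbols end in a letter, as ZNF587B does. The GENCODE release 29 annotation of GRCh38 lists 247 genes that meet the rule, and those with no row in the table were not analysed here. RNA was measured by sequencing in SW1990, an established line of pancreatic cancer cells labelled wild type. Cells received erianin at 100 nM for 48 h, or the solvent DMSO in a matching amount for 48 h, and each group has 2 libraries. The title of the series names the kinases AKT and ASK1 as direct targets of erianin. The labels do not say whether the libraries of a group came from separate cultures. If they did not, the p-values reflect technical spread alone. All cells are of this single line.

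Chromosome 19 carries most of the large human clusters of zinc finger genes, which grew by repeated tandem duplication. Each finger is a short loop in which 2 cysteines and 2 histidines hold a zinc ion, and a row of fingers reads a stretch of DNA. Many of these proteins also carry a Krüppel-associated box (KRAB), which binds the corepressor TRIM28. TRIM28 in turn brings the histone H3 lysine methyltransferase SETDB1 and heterochromatin proteins to the bound site, and many of the sites lie in transposable elements. The members without a KRAB box are a mixed group of DNA-binding and regulatory proteins.

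A pattern search in the annotated coding sequences found a KRAB box in 190 members and none in 34. The pattern misses diverged boxes, so the second group is one without a match and may include such proteins. The median member had 12 fingers, 13 among members with a KRAB match and 9 among those without, and ZNF91 had the highest number, 32. The search found no complete finger in ZNF738, which has a KRAB match. Median protein length was 591 residues. The transcripts were poor in G and C: the longest transcript of the median member had a GC content of 42.4%, the members ranged from 33.9% to 71.1%, and 191 of them, 85.3%, were under 50%. Over all genes of the table the median was 49.1% and 52.9% were under 50%. Among the other 990 protein-coding genes of chromosome 19 the median was 60.03%, and 7.58% were under 50%. The GC content divided the members by domain, with a median of 42.1% for those with a KRAB match and 60.1% for those without. At the last base of the codons the medians were 38.0% and 74.5%.

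Single fingers show this difference, ZNF229 less clearly than the others below. The stretches below code for 1 finger each from the middle of the protein, on GRCh38, and run 5′ to 3′ on the coding strand, with the codons of the 4 zinc-binding residues in capitals. They were read from the GENCODE release 29 transcripts. The first 3 belong to members with a KRAB match that had lower counts in both erianin libraries, and the stretches are 50%, 40.5% and 42.9% G and C. All lie within 1 exon, at chr19:44428894-44428977 on the minus strand (ZNF229), chr19:19934150-19934233 on the plus strand (ZNF93) and chr19:52800273-52800356 on the minus strand (ZNF28).
ZNF229: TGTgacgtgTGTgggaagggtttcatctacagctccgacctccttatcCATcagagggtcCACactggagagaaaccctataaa
ZNF93: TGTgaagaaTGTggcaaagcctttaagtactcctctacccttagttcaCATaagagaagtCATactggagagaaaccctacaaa
ZNF28: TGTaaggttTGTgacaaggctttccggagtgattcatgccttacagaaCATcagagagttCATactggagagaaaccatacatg
The other 3 belong to abundant members without a KRAB match, at 71.4%, 69.0% and 72.6% G and C. They lie within 1 exon each, at chr19:55645010-55645093 on the plus strand (ZNF581), chr19:56088635-56088718 on the minus strand (ZNF787) and chr19:7520035-7520118 on the plus strand (ZNF358).
ZNF581: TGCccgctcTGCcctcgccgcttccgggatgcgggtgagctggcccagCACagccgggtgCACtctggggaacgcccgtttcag
ZNF787: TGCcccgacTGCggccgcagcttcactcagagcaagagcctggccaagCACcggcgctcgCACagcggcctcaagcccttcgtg
ZNF358: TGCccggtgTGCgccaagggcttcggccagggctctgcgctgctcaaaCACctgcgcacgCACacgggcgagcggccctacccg
The cysteine codons are written with a final T in the first 3 stretches and with a final C in the other 3.

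Library totals ran from 59923935 to 63336545 counts. All 7 epithelial markers checked, among them KRT7, KRT8, KRT18, KRT19 and EPCAM, were at 1 FPKM (fragments scaled to transcript length and library size) or more in every library. Of 16 markers of blood, vessel, stromal, acinar and islet cells, 12 were in the table, and their summed level was 5.22 FPKM in DMSO replicate 1 against 0.640 to 1.17 FPKM in the other 3 libraries. COL1A1, COL3A1 and DCN, genes of matrix-forming cells, reached 1 FPKM in DMSO replicate 1 and in no other library. PTPRC, LYZ and HBB, of blood and immune cells, had 9, 16 and 6 counts in DMSO replicate 1 and 0 counts in those 3 libraries. Not all markers followed this order. PECAM1, of vessel cells, had 58 and 50 counts in DMSO against 36 and 72 in erianin. PRSS1, of acinar cells, had 9 counts in DMSO replicate 2 and 0 in each other library. The part of such transcripts in the members' values was not tested, and without DMSO replicate 1 the members' median log2 fold change given below was −0.20. Erianin replicate 2 stood apart in the members' values, as given below with its own values.

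Most members were detected, at low levels. At least 1 count was present for 213 and 212 members in the DMSO libraries, and for 212 and 207 in erianin replicates 1 and 2, and 201 members had a count in all 4 libraries. The table lists no gene that is at 0 in every library, so each listed member has a count in at least 1 library by construction. The numbers and shares here are of listed genes only, and annotated members with no row are not in them. A level of 1 FPKM in the mean of the DMSO libraries was reached by 47 members, or 21.0%, against 40.0% of the 240 ZNF genes on other chromosomes and 41.7% of all genes. Median DMSO levels were 0.328 FPKM for members with a KRAB match and 4.17 FPKM for those without. Only 14.2% of the former but 58.8% of the latter reached 1 FPKM. In all, the members held between 0.107% and 0.111% of the counts of each library.

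**Figure D1:**
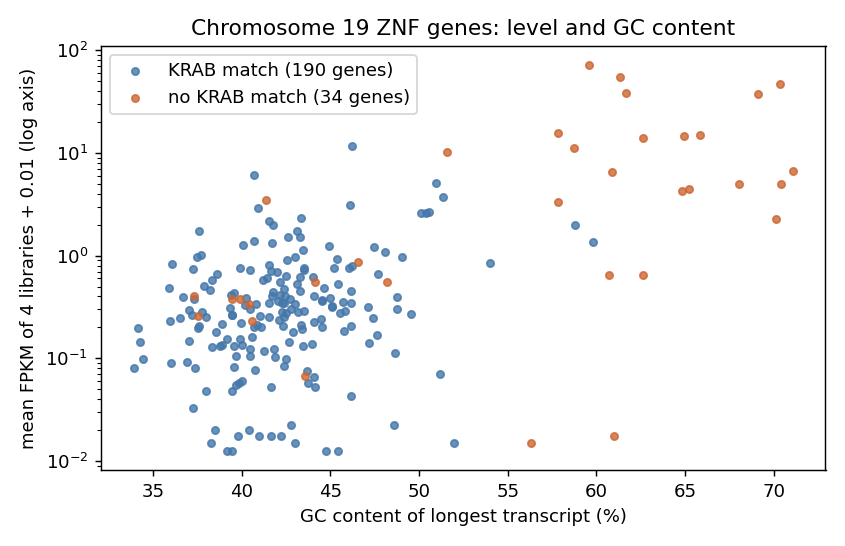
Mean FPKM over the 4 libraries, plus a small offset (log axis), of each member against the GC content of its longest transcript (percent). Colours show whether a KRAB match was found. Members with a match lie mostly under 50% GC and under 1 FPKM (DMSO median 0.328). Those without a match reach the highest levels (DMSO median 4.17).

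The most abundant members per length were 6 GC-rich genes without a KRAB match, and ZNF581 led them with a mean of 71.7 FPKM over the 4 libraries. ZNF428 followed with 55.3, ZNF787 with 46.5, ZNF580 with 38.8, ZNF358 with 37.8 and ZNF444 with 15.8 FPKM. ZNF581 and ZNF580 are neighbours whose exons overlap by 407 bases on the same strand, so their reads may not be fully separable. The most abundant member with a KRAB match was ZNF544, with a mean of 11.6 FPKM. At the other end, 20 members had too few counts to be tested. ZNF382, described as a tumour suppressor in other tissues, was one of them with 0 and 14 counts under DMSO and with 6 and 0 under erianin. Next to the limit, ZNF221 with 21, 0, 0 and 9 counts was left out and ZNF441 with 12, 20, 0 and 0 was kept. ZNF221 and ZNF441 were named after their values were seen, as neighbours of this limit.

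No member differed between erianin and DMSO past an adjusted p of 0.05 in edgeR's quasi-likelihood test, with 204 members tested. The smallest adjusted p of any member was 0.575. Over all 17090 genes tested, 0.0293% were called lower and 0.0117% higher in erianin, or 0.041% in either direction, so few calls were made anywhere in the table. DESeq2 called 0 members (backgrounds 0.0527% lower and 0.0702% higher), and limma-voom called 0 members and no gene at all. At an unadjusted p under 0.05, limma-voom had 11 of 204 members lower and 1 higher. Its background was 1235 lower and 438 higher of all 17090 genes. In edgeR's test at an unadjusted p under 0.05, 12 members were lower (5.88%) and 1 was higher (0.490%), against backgrounds of 5.89% and 2.21%. The lower share is thus that of all genes. Without erianin replicate 1, where the lone erianin library is assumed to vary like the DMSO libraries, edgeR called 8 members lower and 3 higher, of 206 tested, against backgrounds of 10.2% and 7.3% of all genes. In this bulk RNA, fewer cells that express a gene and less RNA per cell cannot be told apart.

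The members nevertheless lay to the lower side as a group. Of the 204 tested, 137 had a log2 fold change (erianin over DMSO) below 0, or 67.2%, against a background of 51.3%. Their median log2 fold change was −0.22 (quartiles −0.59 and 0.10), and that of all genes was −0.01. Both erianin libraries were below both DMSO libraries in 62 members, or 30.4% against a background of 24.4%. They were above both in 26 members, or 12.7% against 21.7%. Among members with a KRAB match, 126 of 173 were below 0 and the median was −0.29. Among those without, 11 of 31 were below 0 and the median was 0.15. These are descriptions: members share libraries and are no replicates of the treatment. The median moved to −0.11 without erianin replicate 2 and to −0.39 without erianin replicate 1.

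Library by library, the downward shift was mainly in erianin replicate 2. Relative to the mean of the DMSO libraries, the median member had a log2 difference of −0.08 in erianin replicate 1 and of −0.36 in erianin replicate 2. For members with a KRAB match these medians were −0.11 and −0.42, and for members without a match 0.07 and 0.14. The DMSO libraries lay close together, with medians of 0.11 and 0.12 above the mean of the 4 libraries. The summed level of members with a KRAB match was 351 and 355 CPM (counts scaled to library size with edgeR's factors) in DMSO, then 334 and 295 in erianin. The sum for members without a match was 703 and 702 CPM in DMSO, then 735 and 898 in erianin. In both sums erianin replicate 1 lay between DMSO and erianin replicate 2.

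**Figure D2:**
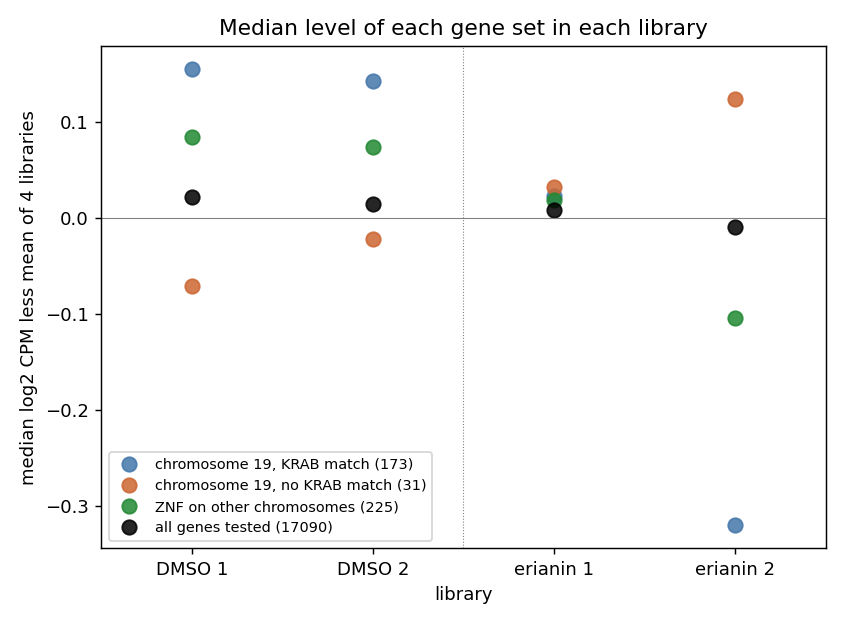
Median over tested genes of log2 CPM less the mean of the 4 libraries, with 1 point for each library and gene set (ZNF genes on other chromosomes in green, all genes in black). Erianin replicate 2 is low for members with a KRAB match (−0.32) and high for those without (0.12), while the medians of all genes lie between −0.0098 and 0.021.

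Several members with a KRAB match and a mean log2 CPM under 1 had lower values in both erianin libraries. ZNF229 (ENSG00000278318, chr19:44417519-44448578, minus strand) had 2.33 and 1.70 CPM in DMSO against 0.597 and 0.648 CPM in erianin, from 154, 106, 38 and 36 counts. Both erianin libraries were well below both DMSO libraries, with a log2 fold change of −1.69 ± 0.39 (SE) and an unadjusted p of 0.00249 in edgeR's test, which did not pass adjustment (0.575). ZNF551 had 1.98 and 1.31 CPM in DMSO against 0.660 and 0.378 CPM in erianin, a log2 fold change of −1.66 ± 0.47 (SE). ZNF441 had 0.182 and 0.321 CPM in DMSO against 0 counts in both erianin libraries. Set against a floor of 3 counts in each erianin library, its mean was at least 4.97-fold lower. ZNF14 had a log2 fold change of −2.16, from 0.530 and 0.545 CPM to 0.0942 and 0.144 CPM. These 4 members were named after their values were seen, since the rule for named members asked for a higher level.

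ZNF28 (ENSG00000198538, chr19:52797409-52857600, minus strand) had the smallest p among members whose mean log2 CPM was 1 or more. It had 2.53 and 2.72 CPM in DMSO against 1.48 and 1.31 CPM in erianin. The groups did not overlap, and the log2 fold change was −0.91 ± 0.30 (SE, unadjusted p = 0.0164 and adjusted p = 0.575 in edgeR's test). ZNF562 had 4.45 and 3.25 CPM in DMSO against 2.56 and 1.60 CPM in erianin, with a log2 fold change of −0.89 ± 0.33 (SE). Its FPKM were 0.31 and 0.30 in DMSO against 0.36 and 0.10 in erianin, so by that measure erianin replicate 1 was not lower. In limma on log2(FPKM + 0.1) its log2 fold change was −0.42. ZNF121, in the same run of genes and without a KRAB match, had 4.11, 2.92, 2.28 and 1.53 CPM in the same order, with −0.88 ± 0.32 (SE). In both genes erianin replicate 2 was the lowest library.

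ZNF8 had 4.29 and 5.45 CPM in DMSO against 2.98 and 3.38 CPM in erianin, a log2 fold change of −0.61 ± 0.25 (SE). Its exons share 1889 bases on the same strand with the read-through gene ZNF8-ERVK3-1, which had a log2 fold change of 0.90. They also share 1707 bases on that strand with a gene listed by ID alone, at −0.39. How reads were divided among these genes is not known. ZNF507, without a KRAB match, had 3.91, 3.69, 2.75 and 2.05 CPM and a log2 fold change of −0.66 ± 0.27 (SE). ZNF302 had 3.23, 2.47, 1.95 and 1.73 CPM and −0.63 ± 0.30 (SE). In ZNF8, ZNF507 and ZNF302 both erianin libraries were below both DMSO libraries, and none of them passed adjustment.

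The abundant members without a KRAB match had small differences, most of them upward. ZNF581 (ENSG00000171425, chr19:55635459-55645622, plus strand) had 91.3 and 86.6 CPM in DMSO against 102 and 121 CPM in erianin. Its log2 fold change was 0.33 ± 0.11 (SE, unadjusted p = 0.0201 and adjusted p = 0.575 in edgeR's test), and it was the member counted as higher above. ZNF414 had 29.2 and 26.2 CPM in DMSO against 32.6 and 35.6 CPM in erianin, with 0.30 ± 0.14 (SE). The groups did not overlap in CPM in either gene. The FPKM of ZNF414 did overlap, with 11.72 and 15.63 in DMSO against 15.59 and 12.91 in erianin. ZNF428 had 69.3, 65.4, 71.9 and 79.7 CPM, and ZNF444 had 34.7, 31.6, 36.4 and 38.7 CPM, again without overlap, with log2 fold changes of 0.17 and 0.18. ZNF428 turned to −0.05 with the trend with GC content removed.

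In 4 other abundant members the higher erianin mean came from replicate 2 alone. ZNF358 (ENSG00000198816, chr19:7515292-7521026, plus strand) had 67.3 and 72.8 CPM in DMSO. Erianin replicate 1 had 65.0 CPM, whereas replicate 2 had 146 CPM. Its log2 difference from the DMSO mean was −0.11 in replicate 1 and 1.06 in replicate 2. The fitted log2 fold change of 0.59 ± 0.31 (SE) became −0.11 without erianin replicate 2. Without erianin replicate 1 it was 1.05. It was also called higher without that library once the trend with GC content, described below, was removed, the only member called there (backgrounds 1.34% lower and 2.42% higher). ZNF787 had 99.4, 99.9, 98.1 and 124 CPM, ZNF580 had 48.4, 52.6, 49.1 and 63.1 CPM, and ZNF628 had 17.4, 15.9, 16.7 and 21.2 CPM. Their log2 fold changes were 0.15, 0.15 and 0.19, and erianin replicate 1 lay within or just below the DMSO values in each. With the trend with GC content removed, ZNF787 turned to −0.06 and ZNF580 to −0.07. ZNF865, the most GC-rich member at 71.1%, was nearly level, with 28.7, 27.6, 29.9 and 30.9 CPM.

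**Figure D3:**
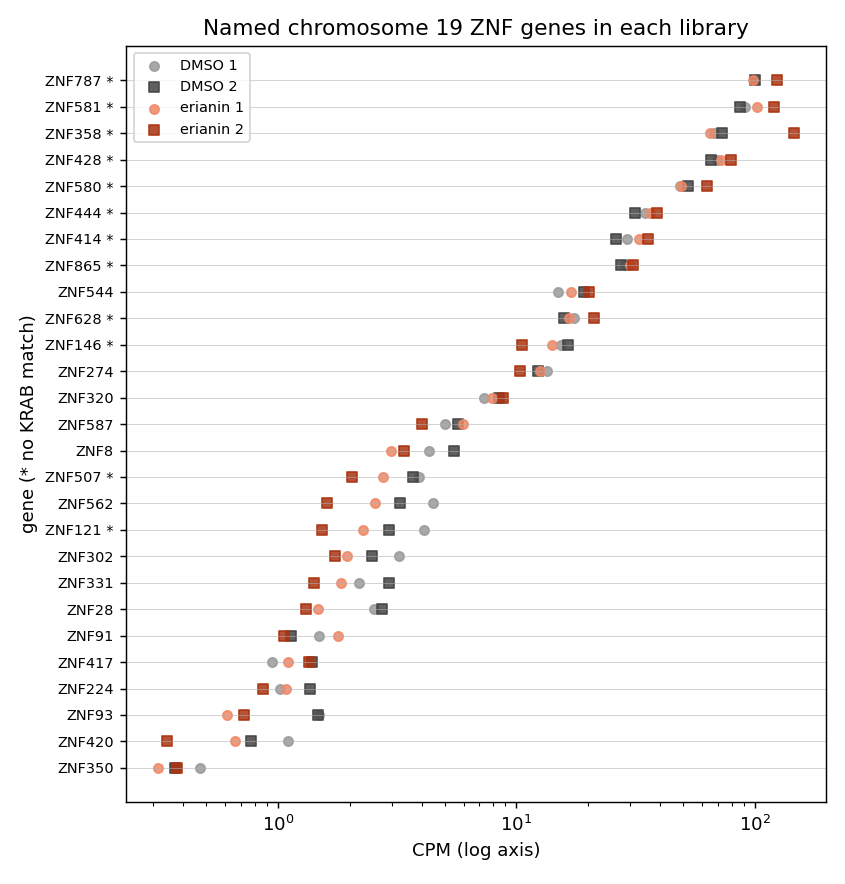
CPM (log axis) of each named member in the 4 libraries, as single points for DMSO and erianin replicates. The members at the low end mostly have lower erianin points, the abundant ones are nearly level, and ZNF358 has a lone high point at 146 CPM in erianin replicate 2.

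Several members have roles established in other systems. ZNF91, which represses SVA elements, had 1.48 and 1.14 CPM in DMSO against 1.79 and 1.06 CPM in erianin, and the groups overlapped. ZNF93, which represses LINE-1 elements, had 1.48 and 1.47 CPM in DMSO against 0.612 and 0.720 CPM in erianin. Its log2 fold change was −1.15 ± 0.40 (SE, unadjusted p = 0.0215 and adjusted p = 0.575 in edgeR's test), and the groups did not overlap. ZNF274, which brings SETDB1 to zinc finger genes themselves, had 13.4, 12.3, 12.6 and 10.3 CPM, overlapping values with a log2 fold change of −0.16 ± 0.17 (SE).

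ZNF420, known as a regulator of p53 activity, had 1.11 and 0.769 CPM in DMSO against 0.660 and 0.342 CPM in erianin, a log2 fold change of −0.90 ± 0.56 (SE). ZNF331 had 2.2, 2.93, 1.84 and 1.42 CPM and −0.65 ± 0.32 (SE). In both the erianin values were below the DMSO values, with wide errors. ZNF350, a partner of BRCA1, and ZNF224, a repressor of the aldolase A gene, had log2 fold changes of −0.28 ± 0.70 and −0.29 ± 0.41 (SE), with errors larger than the differences. ZNF146, which consists almost wholly of fingers and has no KRAB match, had 15.4 and 16.4 CPM in DMSO against 14.1 and 10.6 CPM in erianin, with −0.37 ± 0.18 (SE). ZNF544 and ZNF320, both with a KRAB match and under 50% GC, had log2 fold changes of 0.13 and 0.08, the latter at −0.03 with library totals as the only scaling.

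ZNF417 and ZNF587, which repress endogenous retroviruses of the HERV-K group, are near copies. They align at 97.4% identity over 2205 bases, and the finger stretches below show 2 differing bases in capitals. The stretches lie at chr19:57859556-57859639 on the plus strand (ZNF587) and chr19:57909051-57909134 on the minus strand (ZNF417) of GRCh38.
ZNF587: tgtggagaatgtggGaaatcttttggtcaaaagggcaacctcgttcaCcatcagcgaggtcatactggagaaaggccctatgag
ZNF417: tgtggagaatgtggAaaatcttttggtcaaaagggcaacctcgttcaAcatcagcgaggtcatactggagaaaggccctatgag
ZNF587 had 5.03 and 5.67 CPM in DMSO against 5.95 and 4.03 CPM in erianin. ZNF417 had 0.939 and 1.39 CPM in DMSO against 1.10 and 1.35 CPM in erianin. Because reads may be split between the copies, their sum was also taken: 5.97 and 7.07 CPM in DMSO against 7.05 and 5.38 CPM in erianin, which overlap. Such uncertainty was common. A stretch of at least 200 bases at 95% identity or more with another gene was present in 67 of the 224 members. Exons of 100 members overlapped those of another gene, 60 on the same strand and 50 on the opposite strand. Among named members, ZNF320 shared 6021 exon bases with ZNF468 on the same strand and ZNF358 shared 418 with a gene listed by ID alone. On the opposite strand ZNF562 shared 2461 bases with ZNF561-AS1, ZNF224 shared 2875 with ZNF225-AS1 and ZNF587 shared 2445 with ZNF814. The strand setting of the counting is unknown here, so reads of such partners cannot be told apart.

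The size of a difference depended on the level of the gene. The median standard error of the log2 fold change was 0.44 for members with a KRAB match and 0.17 for those without. All 72 tested members at a mean log2 CPM of 1 or more had a log2 fold change between −1 and 1. The fold changes beyond these limits, in both directions, therefore came from members under that level. Examples on the higher side are ZNF230, with 0.470 and 0.128 CPM in DMSO against 1.07 and 0.630 CPM in erianin, and ZNF763, with 0.152, 0.0321, 0.408 and 0.216 CPM; both were named after their values were seen. Only 7 members with a KRAB match reached a mean log2 CPM of 3, and their median log2 fold change was 0.08.

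GC content moved with the fold change across the whole table. Over all genes with a GC value, Spearman's rho between them was 0.428 (n = 16707 genes), and over the members it was 0.218 (n = 204). Within the members it was 0.041 over the 173 with a KRAB match, nearly flat, and 0.444 over the 31 without. With each erianin library set against the DMSO mean, rho over all genes was 0.26 in replicate 1 and 0.44 in replicate 2. The slope per 10 percentage points of GC content was 0.08 in replicate 1 and 0.26 in replicate 2. Over the members rho was 0.16 and 0.20. All points share the 4 libraries, and these values are descriptions across genes. Within the members, those under 50% GC were lower with or without a KRAB match: the medians were −0.30 over 164 members with a match and −0.39 over 10 without. At 50% GC or more the medians were 0.03 over 9 members with a match and 0.18 over 21 without. Level moved with the members' fold change too, with a rho of 0.275 against mean log2 CPM (0.116 over all genes). That rho was 0.162 in the fit described below that removes the GC and length trend. Members without a match had a median of −0.38 at a mean log2 CPM of 0 to 3 (10 members). At 3 or more it was 0.18 (19 members). Which of GC content and level goes with the direction was not tested. Read by GC band, the members at 35 to 40% had a median of −0.36 (50 members) and all genes there −0.29. At 40 to 45% the values were −0.32 (89 members) and −0.24, and at 45 to 50% they were −0.26 (31 members) and −0.10. At 60 to 65% the members (8) and all genes were both at 0.16. The members under 35% were only 4 and had a median of 0.05.

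**Figure D4:**
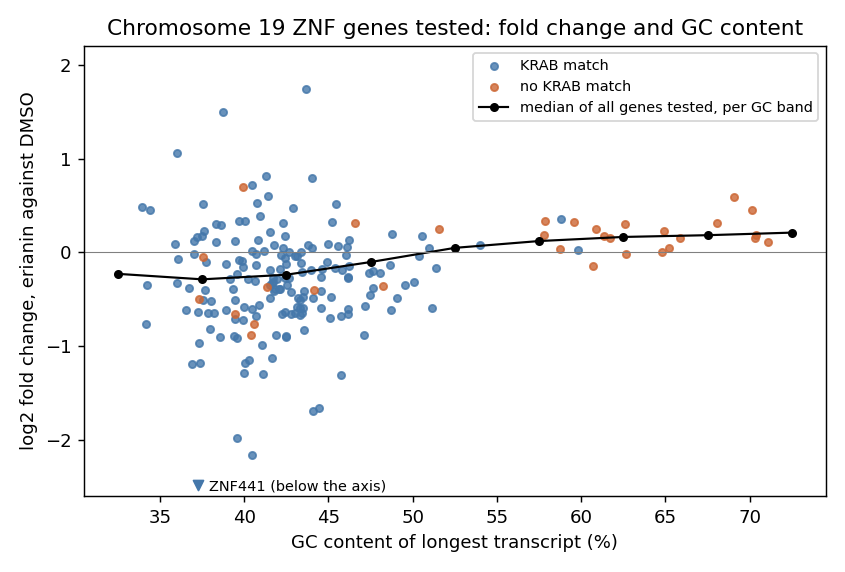
Log2 fold change (erianin over DMSO) of each tested member against the GC content of its longest transcript (percent), with the median of all genes in bands of 5 percentage points. Member medians are negative from 35 to 50% GC and near 0.2 above 60%, as are those of all genes, but the 4 members under 35% have a median of 0.05 against −0.23 for all genes.

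A fit that removed the table-wide trend with GC content and transcript length left a median log2 fold change of −0.07 over the members and −0.01 over all genes. Members with a KRAB match were then at −0.09 and those without at −0.02, so the direction of the latter turned. Below 0 were 58.3% of the members, against a background of 51.9%. At an unadjusted p under 0.05 there were 6 lower and 3 higher members, against backgrounds of 3.12% and 3.36%. No member passed adjustment, with a background of 0.0293%. The log2 fold changes of ZNF229 and ZNF93 became −1.43 and −0.94 in that fit, and that of ZNF581 became 0.11. ZNF28, ZNF121 and ZNF562 were then at −0.63, −0.58 and −0.57. ZNF8, ZNF302 and ZNF507 were at −0.43, −0.40 and −0.35, and ZNF414 was at 0.11. Each of these was smaller in size than in the fit with the trend kept. Whether the trend with GC content is technical was not tested.

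The members lie in 21 runs along the chromosome when genes up to 500 kb apart are joined, and 8 runs hold at least 10 members. Median log2 fold changes were below 0 in 7 of these 8. The lowest was −0.50 in the run from ZNF565 to ZNF573 (chr19:36182060-37817300), with 26 members of which 18 of 23 tested were below 0. The run from ZNF653 to ZNF791 (25 members) was at −0.34 and that from ZNF175 to ZNF331 (37 members, all with a KRAB match) at −0.31. The largest run, ZNF264 to ZNF446 near the end of the long arm with 40 members, was at −0.19. The run from ZNF101 to ZNF43, with a median GC content of 37.6%, was at −0.07. The exception was ZNF628 to ZNF71 (chr19:55476332-56626481), with 12 members of which 3 had a KRAB match. It had a median GC content of 63.3% and a median log2 fold change of 0.15, and 1 of 11 tested members was below 0. This run holds ZNF581, ZNF580, ZNF787, ZNF444 and ZNF865. With the GC and length trend removed its median was −0.0047, and that of the ZNF565 to ZNF573 run was −0.25. Of the 7 runs with medians below 0, ZNF414 to ZNF846 and ZNF101 to ZNF43 then turned to 0.04 and 0.08.

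**Figure D5:**
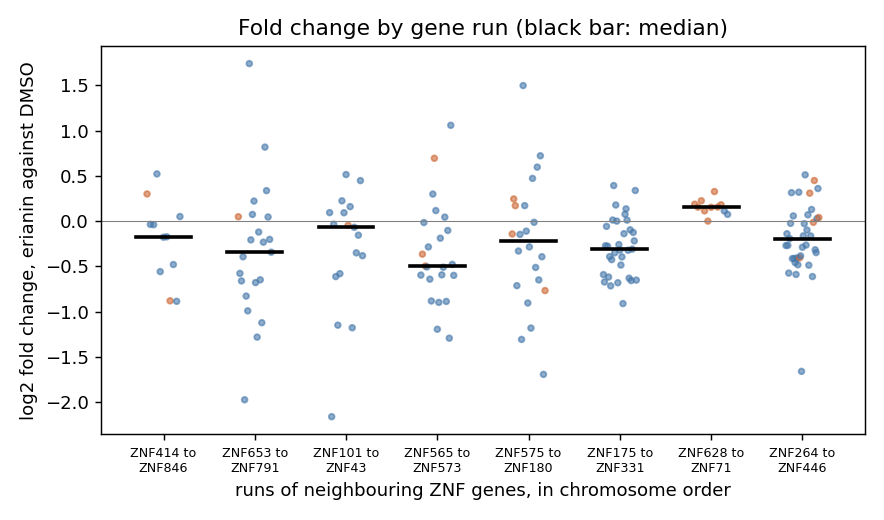
Log2 fold changes of the tested members in each of the 8 runs with at least 10 members, blue with and orange without a KRAB match, and black bars for the run medians; ZNF441, at 0 in both erianin libraries, is not drawn. Of the 8 runs, 7 have medians from −0.50 to −0.07, and the run from ZNF628 to ZNF71 has a median of 0.15.

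The ZNF genes on other chromosomes lay to the lower side too, by less in their median. Of 225 tested, 59.6% were below 0 and the median log2 fold change was −0.08. Over the 98 with a KRAB match it was −0.12. At an unadjusted p under 0.05 in edgeR's test, 8.44% of the 225 were lower and 0.444% higher. The members had 5.88% and 0.490%, and all genes 5.89% and 2.21%. At 40 to 45% GC, the median of the ZNF genes on other chromosomes was −0.41 over 61 genes against −0.32 over the 89 members. In the bands beside it the members were the lower set. At 35 to 40% GC the values were −0.16 over 44 genes against −0.36 over the 50 members. At 45 to 50% they were −0.20 over 36 genes against −0.26 over the 31 members. The other protein-coding genes of chromosome 19 lay to the higher side, with 18.9% below 0 and a median of 0.15, the same as that of the members without a KRAB match. None of these set differences was tested, since genes are not replicates.

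The partners of KRAB proteins were read from a list of 37 corepressor and chromatin genes, all of them tested. None passed an adjusted p of 0.05 in edgeR's test, and at an unadjusted p under 0.05 there were 5 lower and 0 higher, against backgrounds of 5.89% and 2.21% of all genes, with the smallest adjusted p at 0.575. TRIM28, the shared corepressor, was abundant, with 555 and 547 CPM in DMSO against 577 and 624 CPM in erianin, a log2 fold change of 0.12 ± 0.09 (SE) that turned to −0.05 with the GC and length trend removed. SETDB1, the methyltransferase, had 18.1, 15.1, 17.1 and 16.1 CPM, with overlapping groups. ATF7IP, the partner that stabilises SETDB1, had 19.4 and 19.6 CPM in DMSO against 12.8 and 9.84 CPM in erianin, a log2 fold change of −0.78 ± 0.17 (SE). The other 4 were SUV39H2 (−0.82), TRIM33 (−0.70), CBX1 (−0.50) and ATRX (−0.44). In all 37 the median was −0.18, with 27 below 0 (background 51.3%), and it was −0.07 once the GC and length trend was removed.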

How the data were processed

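RNA-seq libraries of SW1990 cells, 2 with DMSO and 2 with erianin, were analysed. The authors deposited a table of read counts (estimated counts that are all whole numbers) and FPKM values per gene. Per the submitters' processing notes, fastp, STAR, StringTie 2.2.1, featureCounts 2.0.1 and GRCh38 were used, in roles the notes do not give. The annotation, the strand setting and the treatment of reads with several matches are in neither labels nor notes, so splitting between near copies cannot be traced. The deposited FPKM values, summed over the rows of each gene ID, were used for levels.

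The count table's 107429 rows were summed per gene ID (176 members had more than 1 row). edgeR 4.0.16 (R 4.3.3) tested 17090 genes by quasi-likelihood F test, with TMM factors (0.928 to 1.04), filterByExpr and Benjamini-Hochberg adjustment over all genes. The residual degrees of freedom were 2 and the common biological coefficient of variation was 0.233. DESeq2 1.42.0, limma 3.58.1, other scalings and filters, a spline on GC content and length, and leaving out each library were alternatives. GC content, fingers (2 cysteines and 2 histidines) and KRAB boxes were read from GENCODE release 29 transcripts, near copies with BLAST+ 2.17.0. The statistics scripts were tested on simulated data.

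Members and lists were chosen with earlier results of these data known. Named members were the 8 with the smallest p at a mean log2 CPM of 1 or more, the 6 with the highest FPKM, the 3 lowest and 3 highest in GC content at a mean log2 CPM of 3 or more, and 11 with known roles. The design expected counts and the values are whole, so the count test was kept.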

Additional observations from a re-analysis of the deposited data

How the results depend on the processing

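These results rest on 2 libraries a group, and the standard error of a single member with a KRAB match had a median of 0.44 on the log2 scale. The cause of the changes below was not tested, beyond the loss of a library where one was left out. Members past the threshold were 0 under all settings but 3: 11 without erianin replicate 1, with a range of 0 to 11 over the libraries left out, 1 with the GC and length trend removed and without erianin replicate 1, and 2 with the replicate block. The replicate numbers do not show a pairing (the correlation of the deviations of DMSO replicate 1 and erianin replicate 1 was 0.052), and with the replicate block 334 of all genes were called, against 7 without it. All genes past the threshold ranged from 24 to 3166 over the libraries left out. They were 21 in DESeq2, 0 in limma-voom (1235 lower and 438 higher at an unadjusted p under 0.05), 2 in limma on log2(FPKM + 0.1), 2 on log2(FPKM + 1) and 2 with library totals alone, where the median of all genes was −0.11. With the GC and length trend removed they were 14 with the replicate block, 12 and 37 when DMSO replicate 1 or 2 was left out, and 681 and 25 when erianin replicate 1 or 2 was. The median log2 fold change of the members was below 0 under every setting and ranged from −0.39 to −0.11 over the libraries left out. It was −0.063 in limma on log2(FPKM + 1) and −0.066 in the fit with the GC and length trend removed. In the latter fit it was −0.073 under the replicate block, −0.076 and −0.031 when DMSO replicate 1 or 2 was left out, and −0.045 when erianin replicate 2 was.

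Named members whose log2 fold change reversed were mostly those near 0. Removing the GC and length trend reversed ZNF428 at −0.050, ZNF580 at −0.065, ZNF587 at 0.13, ZNF787 at −0.056 and ZNF865 at −0.014. The replicate block in the same fit gave ZNF428 at −0.049, ZNF580 at −0.066, ZNF587 at 0.13, ZNF787 at −0.056 and ZNF865 at −0.015. With the trend removed and DMSO replicate 1 left out, the values were ZNF350 at 0.058, ZNF417 at −0.037, ZNF580 at −0.11, ZNF587 at 0.028, ZNF787 at −0.083 and ZNF865 at −0.018. Leaving out DMSO replicate 2 in that fit gave ZNF224 at 0.22, ZNF428 at −0.10, ZNF580 at −0.016, ZNF587 at 0.25, ZNF787 at −0.028 and ZNF865 at −0.015. Leaving out erianin replicate 1 gave ZNF350 at 0.13, ZNF428 at −0.11, ZNF580 at −0.0013, ZNF787 at −0.010 and ZNF865 at −0.055. Leaving out erianin replicate 2 gave ZNF358 at −0.19, ZNF417 at −0.024, ZNF580 at −0.13, ZNF587 at 0.26, ZNF628 at −0.058 and ZNF787 at −0.099. Library totals alone put ZNF320 at −0.025 and ZNF417 at −0.033. Limma put ZNF224 at 0.088 and ZNF587 at 0.068 on log2(FPKM + 0.1), and ZNF224 at 0.027 and ZNF587 at 0.042 on log2(FPKM + 1). With the trend kept, over the libraries left out, the values ran for ZNF320 from −0.028 to 0.19, ZNF358 from −0.11 to 1.05, ZNF417 from −0.19 to 0.38, ZNF544 from −0.043 to 0.32, ZNF580 from −0.039 to 0.31, ZNF587 from −0.42 to 0.15, ZNF787 from −0.021 to 0.30 and ZNF91 from −0.31 to 0.45.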

Other observations

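RefSeq promoters (250 bases before to 50 after the start, GRCh38.p14) were matched for 200 of the 224 members. The dinucleotide CG, which reads alike on both strands, was counted in them. The median member promoter held 20 CG and was 60.2% G and C, against 14 CG and 58.3% over all 27305 promoters of that length in the table. At least 1 CG was present in 100% of member promoters and 95.8% of all promoters, and at least 20 in 55.5% and 41.2%. The upper quartile was 26 CG for the members and 28 for all promoters. Members with a KRAB match had a median of 20 CG and those without a match 24. These counts are descriptions of the reference sequence and were not compared with the fold changes.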
